A study of Mus musculus with 21 samples.

Results

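Glutathione and antioxidant enzymes are described here in kidney RNA-seq of apoE knockout mice fed adenine. The members were the genes whose symbol belonged to one of these families: cytosolic and mitochondrial glutathione S-transferases (Gst, the letter a, k, m, o, p or t for the class, and a number, which leaves out the zeta transferase Gstz1), glutathione peroxidases (Gpx), peroxiredoxins (Prdx), thioredoxin reductases (Txnrd), superoxide dismutases (Sod), and the single genes Gclc, Gclm, Gss, Gsr, Ggt1, Nqo1, Srxn1 and Cat. The rule used symbols and no measured value, and it gave 49 members of 21657 genes with a value in either count table. All mice were female, carried the apoE knockout throughout the body on the C57BL/6J background, which raises blood cholesterol, and were 18 weeks old after 14 weeks of diet started at 4 weeks of age. Con mice received chow (5 mice), Ade mice chow with adenine (6 mice), and Ade + IMC mice chow with adenine and iodomethylcholine (6 mice). Adenine in the diet causes tubulointerstitial kidney disease, and iodomethylcholine (IMC) blocks the production of trimethylamine by gut bacteria, the precursor of the metabolite trimethylamine N-oxide. The study asked how kidneys of adenine-fed mice change when this production is blocked, and the 4 Con + IMC mice were not analysed here. Each library came from the kidney of 1 mouse.

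Glutathione is a tripeptide that serves as the main soluble thiol of the cell. It is made from glutamate, cysteine and glycine, is oxidised when glutathione peroxidases reduce hydrogen peroxide and lipid peroxides, is restored by glutathione reductase with NADPH, and is joined to foreign and reactive compounds by the glutathione S-transferases. Superoxide dismutases turn superoxide into hydrogen peroxide, which catalase, the peroxidases and the peroxiredoxins remove. The cells of the proximal tubule hold large amounts of these enzymes, and many of their genes carry antioxidant response elements, the sequences that the transcription factor NRF2 binds.

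The libraries held 7716126 to 11680809 counted reads in the Con group, 5444833 to 7673215 in the Ade group and 5728589 to 8305968 in the Ade + IMC group. A level is given as CPM, the reads of a gene scaled by the size of its library with TMM factors over the 17 mice, and per kilobase of exon where genes are compared with each other. On this scale a count of 3 corresponds to at most 0.433, 0.501 and 0.484 CPM in the libraries of the 3 groups in the same order, and these floors cover counting error only. Havcr1, the tubular injury marker, had 1 to 7 reads in Con libraries, 549 to 2104 in Ade libraries and 192 to 1580 in Ade + IMC libraries, so that each adenine-fed library was above each Con library. Proximal tubule markers were present in every mouse (summed level of 10 markers from 2236 to 23130 CPM).

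Of the 49 members, 21 are glutathione S-transferases (4 alpha, 1 kappa, 7 mu, 2 omega, 3 pi, 4 theta), 8 glutathione peroxidases, 6 peroxiredoxins, 5 enzymes of glutathione synthesis and recycling, 4 superoxide dismutase and catalase genes, and 5 are the thioredoxin reductases with Nqo1 and Srxn1. The files gave no identifier for Gpx5, and Gpx2 was in the normalized table only, which left 47 members with a value in all 17 mice. In Con kidneys the level per kb was highest for Gpx3, the secreted plasma glutathione peroxidase that the kidney makes for the circulation, at 14140 ± 2508 CPM per kb (SD, n = 5). Gpx3 made up 75.0% to 81.2% of the summed level per kb of the members in Con kidneys, 62.1% to 79.6% with adenine alone and 68.7% to 74.3% with adenine and IMC. Gpx1, the cytosolic peroxidase, followed at 869 ± 220.5 CPM per kb, then catalase (Cat) at 486 ± 55.9 and Prdx5 at 449.5 ± 42.5. The values of Cat and Prdx5 lay within 1 SD of each other, as did those of Gstm1 (251 ± 40.4) and Gsta2 (229 ± 41.7), the most abundant mu and alpha transferases.

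Most members that could be tested were lower in Ade kidneys. Of the 42 members that passed the filter on low counts, 27 were lower and 4 were higher in the Ade group than in the Con group at an adjusted p below 0.1 (edgeR quasi-likelihood test, Benjamini-Hochberg over 14612 genes), and 11 were not called. The same test called 67.3% of all genes, 32.2% lower and 35.1% higher, so that among all genes both directions were about as frequent, while among the members called most were lower. The median log2 fold change was -0.48 over the 42 members and 0.02 over all genes tested. All 6 Ade mice were below all 5 Con mice in 19 members, and above them in 3 (Gpx7, Gpx8 and the untested Gstp3), against 20.6% and 22.4% of all genes tested. In bulk tissue, fewer cells of a type and less RNA per cell cannot be told apart. Markers of the proximal tubule moved with the members, as 9 of the 9 tested were lower in Ade kidneys, with summed levels of 16530 to 23130 CPM in the Con group, 2236 to 9274 in the Ade group and 3893 to 8456 in the Ade + IMC group. Other tubule segments did so too, with 5 of 5 markers of the collecting duct and 4 of 5 of the thick ascending limb and distal tubule lower. Markers of fibroblasts went the other way, with 5 of 5 higher and summed levels of 281 to 330 CPM against 1957 to 2566, and so did those of macrophages, with 5 of 5 higher and 165 to 205 CPM against 1065 to 1736. No marker of these lists was at 0 in all mice, and the part of cell composition in the changes of the members was not tested.

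**Figure D1:**
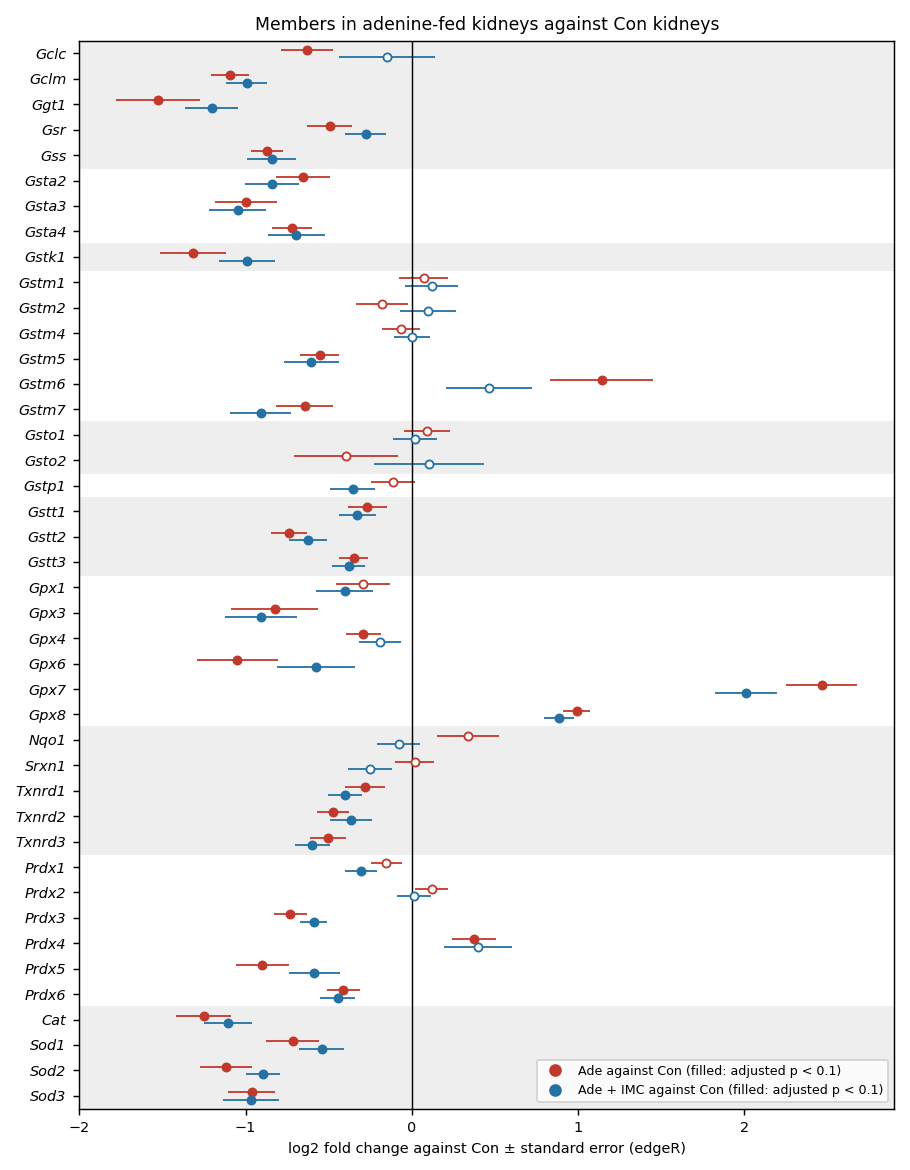
log2 fold change against the Con group (x axis) with its standard error for the 42 members tested, in the Ade group (red) and in the Ade + IMC group (blue), from edgeR, with members in rows grouped by role on alternating shading. Filled points passed an adjusted p of 0.1, and the filled points right of 0 are those of Gpx7, Gpx8, Gstm6 and Prdx4.

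All 5 enzymes of glutathione synthesis and recycling were lower in Ade kidneys, beside 32.2% of all genes tested. Ggt1, the gamma-glutamyltransferase of the brush border that starts the breakdown of extracellular glutathione, had the largest fall of the members tested. Its levels were 1119, 919, 978, 1028 and 1232 CPM in the Con mice and 207 to 631 CPM with a median of 328 in the Ade mice, with no overlap. The groups differed 2.88-fold (log2 fold change -1.53, SE 0.25, adjusted p = 0.000161, edgeR). Gclm, the modifier subunit of glutamate-cysteine ligase, the rate-limiting enzyme of glutathione synthesis, was 2.13-fold lower (log2 fold change -1.09, SE 0.12, adjusted p = 3.77e-06) and did not overlap between the groups either. Gss, the synthetase of the next step, was 1.83-fold lower (log2 fold change -0.87, SE 0.10), although 15.4% of its exonic bases lie in other genes (Acss2, Gssos1 and Gssos2). Smaller differences were seen for Gclc, the catalytic subunit of the ligase (log2 fold change -0.63, SE 0.16), and for Gsr, glutathione reductase (-0.49, SE 0.14), and in both genes single Ade mice overlapped the Con mice.

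The 3 superoxide dismutases and catalase were all lower in Ade kidneys, and each of the 4 separated the groups without overlap. Of all genes tested, 32.2% were lower and 20.6% were lower without overlap. Cat, the peroxisomal catalase, had 1119, 1141, 1262, 1365 and 1462 CPM in the Con mice. In the Ade mice it ranged from 336 to 720.5 CPM with a median of 539.9. Cat was 2.38-fold lower (log2 fold change -1.25, SE 0.17, adjusted p = 2.53e-05, edgeR). Sod2, the mitochondrial dismutase, fell by 1.12 on the log2 scale (SE 0.16), Sod3, the extracellular form, by 0.96 (SE 0.14), and Sod1, the cytosolic form, by 0.72 (SE 0.16). The summed level per kb of the 4 genes was 746 ± 84.1 CPM in the Con group and 338 ± 74.2 CPM in the Ade group.

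The glutathione peroxidases moved in both directions. Gpx3 was 1.77-fold lower in Ade kidneys (log2 fold change -0.83, SE 0.26, adjusted p = 0.0145, edgeR). Its levels were 21810, 23090, 22220, 31530 and 29520 CPM in the Con mice and 7633 to 22580 CPM with a median of 14310 in the Ade mice, so that the highest Ade mouse, number 407, lay within the Con range. Gpx6, a relative of Gpx3 that carries cysteine in place of selenocysteine in the mouse, was 2.07-fold lower (log2 fold change -1.05, SE 0.24, adjusted p = 0.00203). The Con mice split for Gpx6, with 65.4, 69.8, 66.5, 31.8 and 33.2 CPM, and the lower 2 of them lay within the range of the Ade mice (16.5 to 35.3 CPM). Gpx4, which reduces lipid peroxides in membranes, fell by 0.29 on the log2 scale (SE 0.11), but 61.7% of its 50-base windows are found in other transcripts, mainly of the pseudogene Gpx4-ps2, so its count is uncertain. Gpx1 was not called (log2 fold change -0.29, SE 0.16, adjusted p = 0.135, called lower in 4 of 17 alternatives, among them DESeq2 and a block on the leading digit of the mouse numbers, where adjusted p = 0.0518). Without Con mouse 403 its log2 fold change was -0.13.

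Gpx7 and Gpx8, the peroxidases of the endoplasmic reticulum, which lack selenocysteine and take part in oxidative protein folding, were higher in Ade kidneys. Gpx7 had 1.21, 1.88, 2.03, 2.21 and 1.83 CPM in the Con mice and 7.63 to 14.1 CPM with a median of 9.33 in the Ade mice, a 5.52-fold difference (log2 fold change 2.46, SE 0.22, adjusted p = 6.74e-07, edgeR). It was the largest change among the 42 members tested, in either direction, at a level low enough that Gpx7 was among the least abundant members tested in Con kidneys. Gpx8 had 16.4 to 17.7 CPM in the Con mice and 31.2 to 39.5 CPM in the Ade mice, 1.99-fold higher (log2 fold change 0.99, SE 0.08). Neither gene overlapped between the groups. Prdx4, the peroxiredoxin of the same compartment, was also higher, with 16.4, 15.9, 19.4, 20.6 and 22.6 CPM against 21.1 to 32.1 CPM with a median of 22.9, but its groups overlapped (log2 fold change 0.37, SE 0.13, adjusted p = 0.0246). The fibroblast and macrophage markers given above were higher in the same mice, and whether these cells account for the levels of Gpx7, Gpx8 and Prdx4 was not tested.

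Among the peroxiredoxins, Prdx3, Prdx5 and Prdx6 were lower in Ade kidneys, each without overlap between the groups, as were 20.6% of all genes tested. Prdx5, which is found in mitochondria and peroxisomes, had 930.4, 890.5, 975, 899 and 1113 CPM in the Con mice and 359 to 691 CPM with a median of 490.5 in the Ade mice (1.86-fold lower, log2 fold change -0.90, SE 0.16, adjusted p = 0.000278, edgeR). Its exons share 19.1% of their bases with the neighbouring gene Trmt112, and the use of strand in counting is not given in the sources used here. The mitochondrial Prdx3 fell by 0.73 on the log2 scale (SE 0.10) and the phospholipid-reducing Prdx6 by 0.41 (SE 0.10). The cytosolic Prdx1 and Prdx2 were not called, with log2 fold changes of -0.15 (SE 0.09, called by DESeq2 only) and 0.12 (SE 0.10).

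The 3 thioredoxin reductases, selenoproteins that reduce thioredoxin with NADPH, were lower in Ade kidneys by modest amounts, beside 32.2% of all genes tested. Txnrd3 had 49.4, 38.6, 48.6, 46.4 and 45.5 CPM in the Con mice and 27.4 to 40.8 CPM with a median of 29.7 in the Ade mice, overlapping by 1 mouse in each group (log2 fold change -0.50, SE 0.11, adjusted p = 0.0012, edgeR). Txnrd1, the cytosolic reductase and the most abundant of the 3 in CPM, had 214, 181, 201, 262 and 218 CPM against 141 to 222 CPM with a median of 170.4. Its groups overlapped and its call was close to the threshold (log2 fold change -0.28, SE 0.12, adjusted p = 0.0585). The call of Txnrd1 was lost in 6 of 17 alternatives, among them upper-quartile scaling and leaving out Con mouse 302 or Ade mouse 208, 308 or 409. Nqo1 is the quinone reductase and Srxn1 the sulfiredoxin that repairs overoxidised peroxiredoxins. Neither was called, with log2 fold changes of 0.34 (SE 0.19, adjusted p = 0.133) and 0.02 (SE 0.12, adjusted p = 0.914, the sign turning with DESeq2 and with relative log expression scaling). Nqo1 was at 84.9 CPM in Ade mouse 207 and 40.04 to 52.9 CPM in the others, against 35.9 to 46.6 CPM in the Con mice, and it was called higher in 4 of 17 alternatives (upper-quartile scaling, or without Ade mouse 308, 407 or 409). Without mouse 207 its log2 fold change was 0.13.

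Of the 16 glutathione S-transferases tested, 9 were lower in Ade kidneys, 1 was higher and 6 were not called. Of all genes tested, 32.2% were lower and 35.1% higher, and 20.6% were lower without overlap. Gstk1, the kappa transferase of mitochondria and peroxisomes, had the largest fall of the 16, with 59.5, 69.5, 65.7, 65.2 and 86.8 CPM in the Con mice and 16.9 to 38.5 CPM with a median of 26.1 in the Ade mice (2.49-fold lower, log2 fold change -1.32, SE 0.20, adjusted p = 7.22e-05, edgeR). The 3 alpha transferases tested were lower without overlap. Gsta3 had 70.7, 94.9, 92.5, 89.8 and 125 CPM against 26.1 to 61.4 CPM with a median of 47.03 (log2 fold change -0.998, SE 0.19, adjusted p = 0.000436). Gsta2 had 223, 251, 254, 265 and 352 CPM against 118 to 217 CPM with a median of 172 (log2 fold change -0.65, SE 0.16, adjusted p = 0.00333), but 64.2% of its 50-base windows are shared, mainly with Gsta1, so reads of these genes could be split between them. The 3 theta transferases tested were lower as well, most of all Gstt2, with 123, 143, 149.8, 124 and 159 CPM against 69.1 to 98.9 CPM with a median of 83.6 (log2 fold change -0.74, SE 0.11, adjusted p = 6.69e-05). Gstt1, the most abundant theta transferase per kb, overlapped between the groups, with 96.2, 117, 111, 107 and 139 CPM against 73.5 to 108 CPM with a median of 95.1, and lost its call in 7 of 17 alternatives (log2 fold change -0.27, SE 0.12, adjusted p = 0.0643).

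The mu transferases lie side by side on chromosome 3 (chr3:107895821-108044894, GRCm38) and did not move together. Gstm1, the most abundant of them, had 364, 326, 410.4, 301 and 446 CPM in the Con mice and 297 to 509.5 CPM with a median of 363 in the Ade mice and was not called (log2 fold change 0.07, SE 0.15, negative without Ade mouse 207). Gstm2 had 26.2, 40.00, 36.4, 20.8 and 24.8 CPM against 21.8 to 28.98 CPM with a median of 25.8. Gstm2 and Gstm4 were not called either, with log2 fold changes of -0.18 (SE 0.16) and -0.07 (SE 0.11). For Gstm2 the value ranged from -0.29 to -0.053 over the alternatives. Gstm5 and Gstm7 were lower without overlap. Gstm7 had 9.39, 10.2, 12.1, 9.48 and 10.7 CPM against 4.84 to 8.52 CPM with a median of 6.08 (log2 fold change -0.64, SE 0.17, adjusted p = 0.00536, edgeR), and Gstm5 fell by 0.55 on the log2 scale (SE 0.12). Gstm6 was higher, 1.11, 2.74, 2.17, 1.82 and 2.74 CPM against 2.58 to 6.704 CPM with a median of 4.503, with overlap (log2 fold change 1.14, SE 0.31, adjusted p = 0.00599), and 11.5% of its 50-base windows are found in other transcripts. The omega transferases and Gstp1 were not called, although Gsto2 was called lower without Con mouse 403 (log2 fold change -0.62 against -0.40, adjusted p = 0.0408). Gsto2 had few reads, at 0.523 to 2.17 CPM in the Con mice, with mouse 403 the lowest. Gsto1, which also acts on dehydroascorbate and arsenicals, had 80.3, 76.7, 82.9, 79.4 and 110.4 CPM against 72.8 to 120.0 CPM with a median of 87.9 (log2 fold change 0.09, SE 0.14, reaching 0 without Ade mouse 207). Gstp1, the pi transferase, had 17.1, 20.6, 23.6, 17.7 and 26.9 CPM against 16.1 to 21.3 CPM with a median of 20.02 (log2 fold change -0.11, SE 0.13, -0.19 to -0.011 over the alternatives). Of its windows, 62.3% are shared with other transcripts, mainly of Gstp2.

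**Figure D2:**
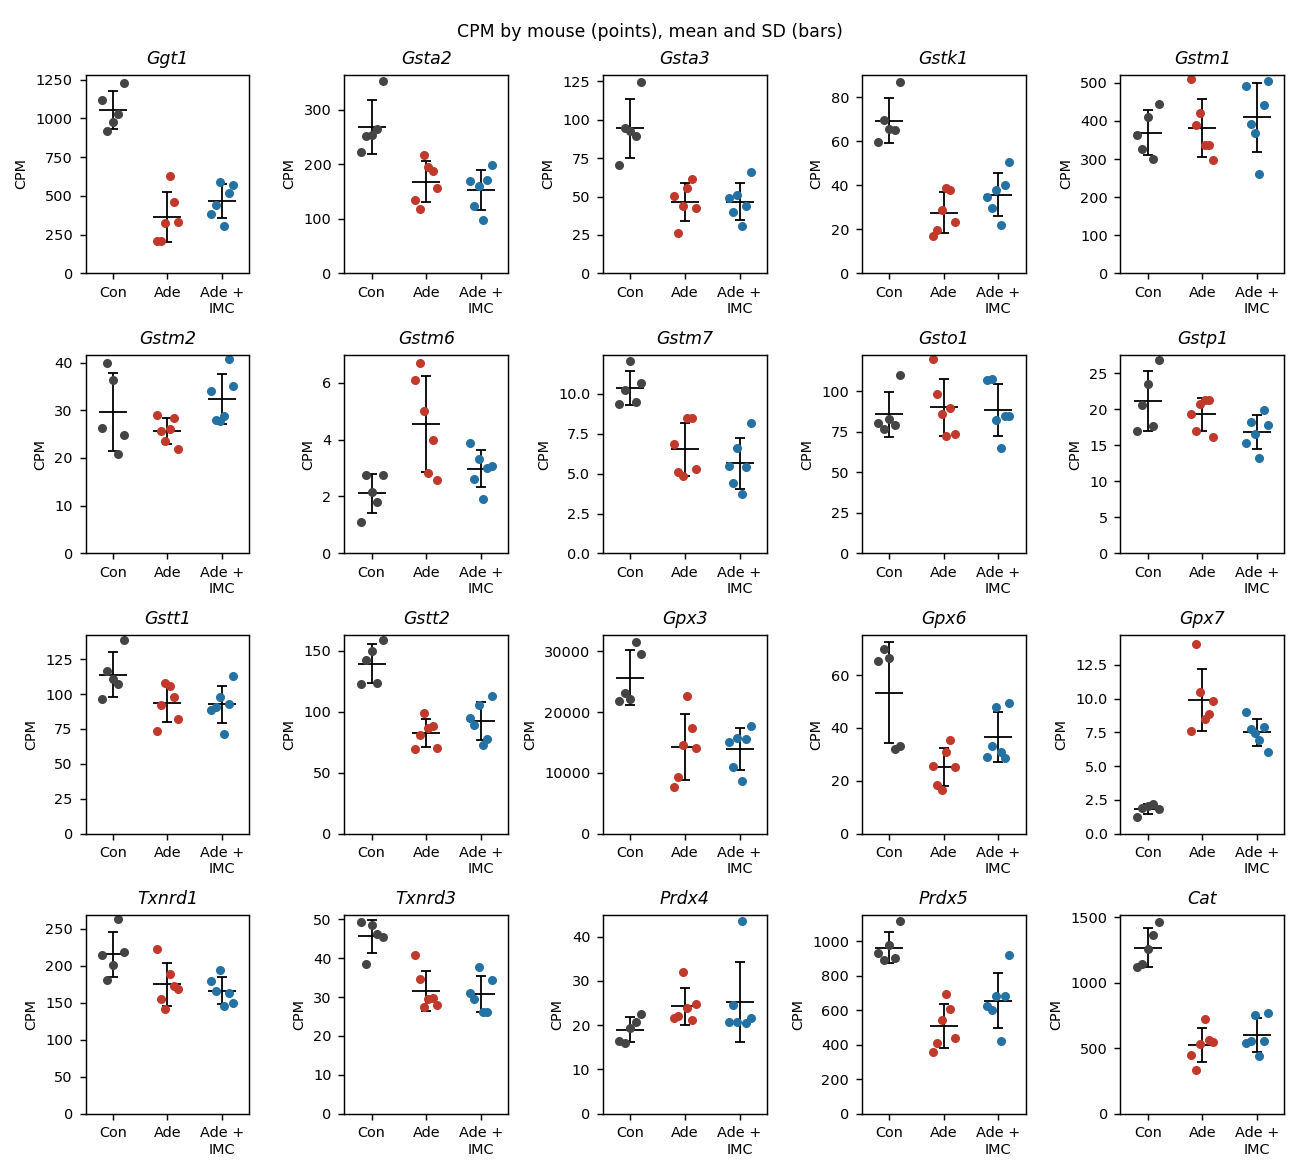
CPM in every mouse (points, y axis from 0) with the mean and SD (bars) of the 20 members chosen by the naming rule, by group (x axis). Ggt1, Cat and Gstk1 separate the Con mice from both adenine-fed groups, Gpx7 does so upwards, and Gstm1 and Gsto1 overlap throughout.

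Members with few reads were not tested against Con. In the Con, Ade and Ade + IMC mice with counts, no library held more than 28 reads of Gsta1, 8 of Gstm3, 4 of Gstp2, 39 of Gstp3 or 8 of Gstt4. Gstp3 was at 0 to 0.260 CPM in the Con mice, under the floor of 3 counts, and at 0.635 to 2.34 CPM in the Ade mice, above every Con mouse. It was tested between Ade + IMC and Ade and not called (log2 fold change -0.19, SE 0.57, adjusted p = 0.961, limma). Over the alternatives this value ranged from -0.45 to 0.27. Ade + IMC mouse 311 was at 4.42 CPM, against 0.147 to 1.93 CPM in the other mice of its group. Gsta1 was at 0 to 0.523 CPM and 0.516 to 3.56 CPM, but 89.7% of its windows are shared with other transcripts. Gpx2, the gastrointestinal peroxidase, had 3 reads in the 6 Ade mice and 5 in the 6 Ade + IMC mice.

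The antioxidant response element was searched as the letters TGACNNNGC on both strands of the RefSeq promoter windows (GRCm38.p6, 250 bases before to 50 after each start). The letters overlap those of the AP-1 motif TGACTCA, which the match in Prdx1 holds. Of the 43 members with a window, 9 held a match (20.9%), compared with 14% of all 27025 genes with a window, and 6 members had no window. Of these 9, 7 were lower in Ade kidneys, 0 higher and 2 not called, Prdx1 and Srxn1, beside 27 lower of all 42 members tested. Of all genes tested, 32.2% were lower and 35.1% higher. A few of the sites are shown to let the called and uncalled members be compared, as 33 bases on the strand of the match, with the 9 matched letters in capitals.
Gclm (chr3:122245411-122245443, strand opposite to the gene): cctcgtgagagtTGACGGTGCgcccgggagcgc
Ggt1 (chr10:75571465-75571497, strand of the gene): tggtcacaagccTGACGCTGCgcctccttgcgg
Gsta3 (chr1:21240452-21240484, strand of the gene): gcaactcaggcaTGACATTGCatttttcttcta
Txnrd1 (chr10:82859102-82859134, strand opposite to the gene): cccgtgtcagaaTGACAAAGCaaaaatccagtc
Prdx1 (chr4:116685454-116685486, strand opposite to the gene): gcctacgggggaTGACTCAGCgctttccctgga
The first 4 belong to members that were lower in Ade kidneys and the last to a member that was not called. A match says only that the letters are present.

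Some mice stood at the end of their group in many members. Con mouse 403 was the highest of its group in 29 of the 42 members tested, Ade mouse 407 in 16 and Ade + IMC mouse 412 in 20, and Ade + IMC mouse 311 was the lowest of its group in 32. Mouse 407 also had the highest summed level of proximal tubule markers among the Ade mice (9274 CPM), and among the Ade + IMC mice 412 had the highest (8456 CPM) and 311 the lowest (3893 CPM). Mouse 403, at 20160 CPM, lay inside the Con range of these markers, and Con mouse 201, the lowest of its group in 18 members, was at 21470 CPM. Without Con mouse 403 the count of called members in Ade against Con was 31 (4 higher, 27 lower), and without Ade mouse 407 it was 33 (5 higher, 28 lower). Without Ade + IMC mouse 311 or 412, the count in Ade + IMC against Con was 30 (3 higher, 27 lower).

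**Figure D3:**
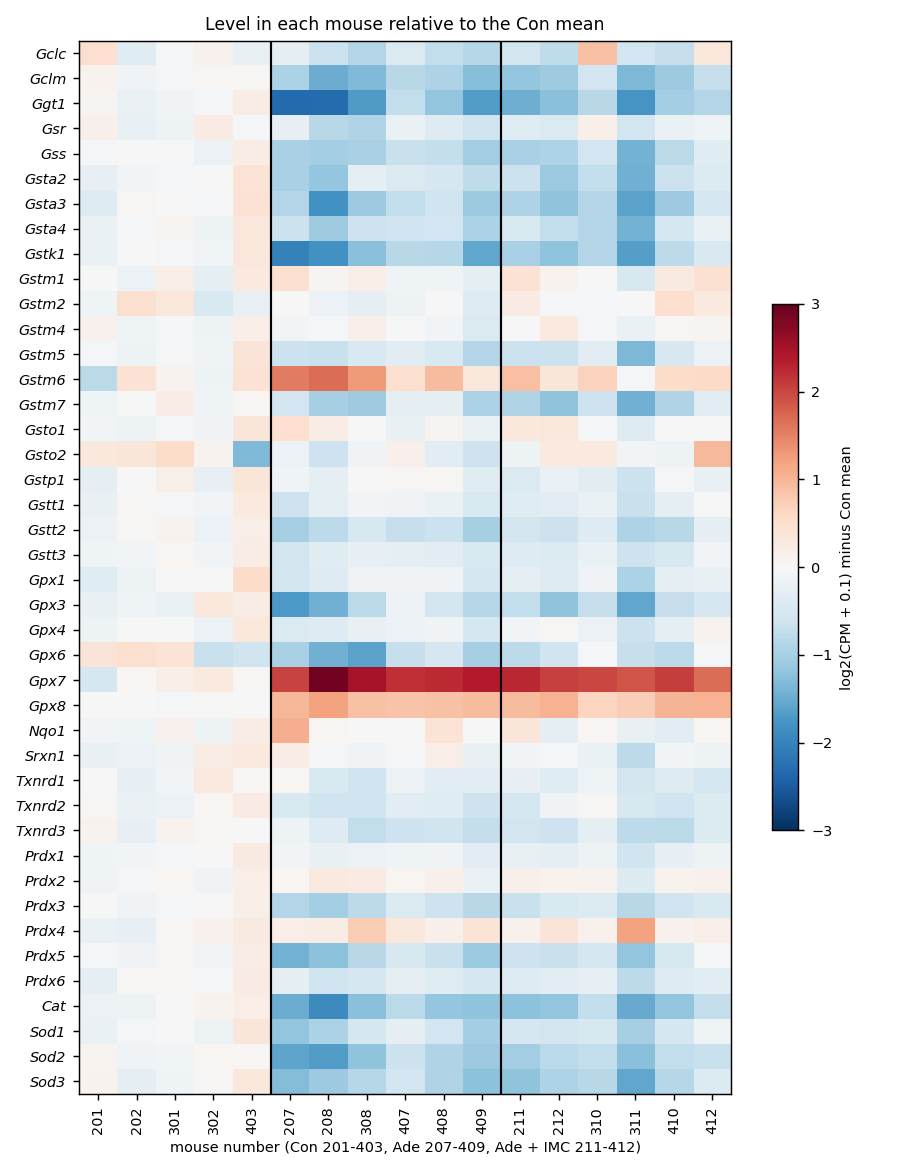
log2(CPM + 0.1) of each member tested (rows, grouped by role) in each of the 17 mice (columns, by mouse number) minus the mean of the Con group, from blue (lower) to red (higher), with lines between the Con, Ade and Ade + IMC groups. Most rows are blue in both adenine-fed groups, the rows of Gpx7 and Gpx8 are red, and the column of mouse 311 is the bluest of its group.

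The Ade + IMC group was compared with the same 5 Con mice, so its values stand beside those of the Ade group and are not independent of them. Of the 42 members tested, 28 were lower and 2 were higher than in Con kidneys by edgeR at an adjusted p below 0.1, compared with 32.3% and 30.9% of all 14578 genes and 63.2% called in either direction. The median log2 fold change was -0.40 over the members and -0.02 over all genes. All 6 mice lay below all Con mice in 16 members and above them in 2, against 16.4% and 20.5% of all genes. Ggt1 was at 306 to 588 CPM with a median of 480.0, 2.31-fold lower than in the Con group (log2 fold change -1.21, SE 0.16, adjusted p = 3.37e-05). Cat was at 442 to 768 CPM with a median of 555 (2.15-fold lower, log2 fold change -1.11, SE 0.14, adjusted p = 3.49e-05), and Gstk1 at 21.8 to 50.4 CPM with a median of 36.2 (1.99-fold lower, log2 fold change -0.99, SE 0.17, adjusted p = 0.000263). These 3 did not overlap with the Con mice.

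Gpx7 was at 6.01 to 9.03 CPM with a median of 7.62 in the Ade + IMC mice. Gpx7 (4.03-fold higher, log2 fold change 2.01, SE 0.19, adjusted p = 2.52e-06) and Gpx8 (1.85-fold higher, log2 fold change 0.89, SE 0.09) were the members called above the Con group, again without overlap. Markers of fibroblasts (5 of 5 higher, summed level 1464 to 2214 CPM) and macrophages (5 of 5 higher, 966 to 1622 CPM) were also above the Con mice in this group, and their part in these values was not tested. Gstm6 and Prdx4, called in Ade against Con, were not called here, with log2 fold changes of 0.46 (SE 0.26) and 0.40 (SE 0.20). Nor was Gpx4, called lower in Ade against Con (log2 fold change -0.19, SE 0.13). For Prdx4 the value of Ade + IMC mouse 311 was 43.5 CPM, against 20.6 to 24.6 CPM in the other 5, and without this mouse the log2 fold change was 0.16. Gclc ranged from 192 to 597 CPM in the Ade + IMC mice, the widest range of the synthesis genes, and was not called (log2 fold change -0.15, SE 0.29, adjusted p = 0.682). Its highest mouse was 310, and its log2 fold change was -0.44 without this mouse and -0.011 without Con mouse 201. Gpx1, Prdx1 and Gstp1, not called in Ade against Con, were lower than in the Con group here, with log2 fold changes of -0.40, -0.31 and -0.36 (SE 0.17, 0.10 and 0.14). Calls near the threshold changed with the setting, those of Gsr in 9, Prdx4 in 6, Gpx6 in 5, Gpx1 and Srxn1 in 3 and Gstm6 and Gstp1 in 2 of 17 alternatives. The calls of Gpx1 and Gstp1 were among those lost without Con mouse 403, where Gpx1 had a log2 fold change of -0.25.

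Adenine-fed mice with and without IMC were then compared directly, which tests for a difference with IMC among adenine-fed mice only. Of the 43 members tested, 0 were called by limma on log2(normalized count + 1), as were 0 of all 14696 genes tested (0% in either direction). The edgeR test on the recovered reads and DESeq2 also called 0 members, and DESeq2 called 0.174% of all genes. The paper, which names DESeq2 and an adjusted p below 0.1, reported many more genes in both directions for these groups. The reason for this difference was not tested. The median log2 fold change of the members was 0.01, with 25 above 0 and 18 below. Without single mice this median ranged from -0.033 (19 above 0, without Ade + IMC mouse 412) to 0.14 (30 above 0, without Ade + IMC mouse 311), so its sign depended on the mice included. At an unadjusted p below 0.05, 3 members were found, 2 of them higher and 1 lower, against 6.72% of all genes, 3.37% higher and 3.35% lower. DESeq2 on the recovered reads, without the filter on low values, gave 6 of 48 members (12.5%) against 5.71% of all genes. Gstm2 was at 27.8 to 40.6 CPM with a median of 31.4 with IMC and 21.8 to 28.98 CPM with a median of 25.8 without (log2 fold change 0.31, SE 0.11, adjusted p = 0.711, exact permutation p = 0.0173, limma). Gpx6 was at 28.8 to 49.2 CPM with a median of 31.9 and 16.5 to 35.3 CPM with a median of 25.4 (log2 fold change 0.52, SE 0.20, adjusted p = 0.711, exact permutation p = 0.0455). Gpx7 was at 6.01 to 9.03 CPM with a median of 7.62 and 7.63 to 14.1 CPM with a median of 9.33 (log2 fold change -0.39, SE 0.15, adjusted p = 0.715, exact permutation p = 0.026), and did not reach this threshold without Ade mouse 208 or Ade + IMC mouse 412. Gsto2 was also below 0.05 in the exact permutation test (exact permutation p = 0.0433) but not by limma (unadjusted p = 0.0969, log2 fold change 0.46, SE 0.26). This gene had few reads, at 1.29 to 2.93 CPM with IMC and 0.903 to 1.62 CPM without. The 2 groups overlapped in these 4 genes and in every other member, and 0.225% of all genes did not overlap. The two-sided exact test has 924 splits and a smallest possible p of 0.00216.

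The same 6 Ade mice enter the comparisons with Con and with Ade + IMC, so the estimates of a member in these are not independent. For the 6 members whose log2 fold change in Ade against Con was below -1, the log2 fold change between Ade + IMC and Ade was 0.44 for Ggt1 (SE 0.26), 0.39 for Gstk1 (SE 0.23), 0.20 for Cat (SE 0.18), 0.29 for Sod2 (SE 0.16), 0.14 for Gclm (SE 0.14) and, as given above, 0.52 for Gpx6, and none was called. For Gpx3 it was 0.01 (SE 0.34). Over the alternatives these values ranged from 0.30 to 0.62 for Ggt1, 0.26 to 0.52 for Gstk1, 0.078 to 0.295 for Cat, 0.19 to 0.39 for Sod2 and 0.052 to 0.20 for Gclm, and from -0.15 to 0.16 for Gpx3. The proximal tubule markers had a median log2 fold change of 0.44 in the same comparison, with 0 of 9 called. When mice were blocked by the leading digit of their number, whose meaning the labels do not state, 8 members were at an unadjusted p below 0.05 (Ggt1, Gpx6, Gpx7, Gstk1, Gstm2, Gstm6, Prdx5 and Sod2), which is 18.6% of the members tested against 13.7% of all genes, and 0 were called (smallest adjusted p = 0.165, limma), while 0.905% of all genes were called. Leaving out a single mouse moved the number of members at an unadjusted p below 0.05 between 2 and 10, and the share of all genes moved too. It was 10 members and 12.9% of all genes without Ade mouse 407, 9 and 10.8% without Ade + IMC mouse 311, 6 and 5.77% without Ade mouse 409, and 5 and 6.70% without Ade + IMC mouse 211. It was 2 members and 4.19% without Ade mouse 208, and 2 and 5.01% without Ade + IMC mouse 412.

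**Figure D4:**
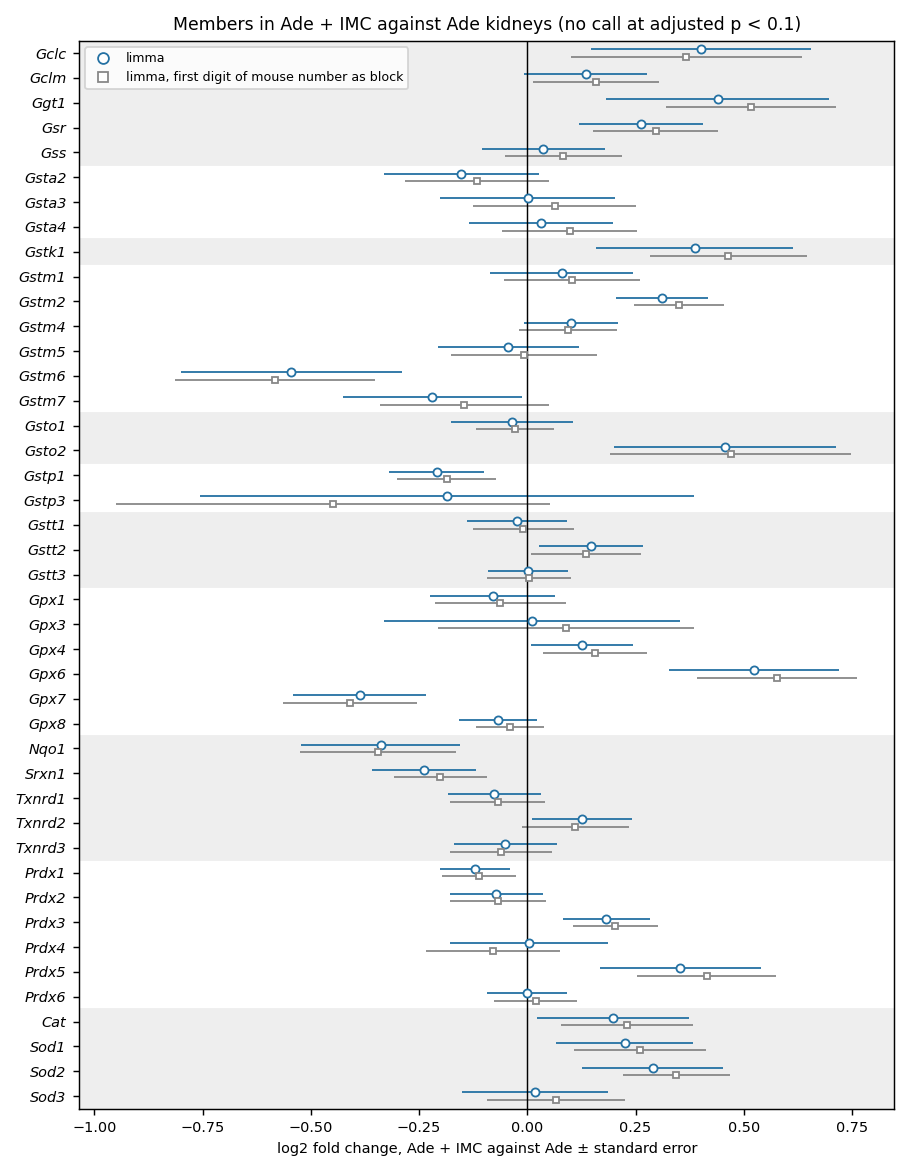
log2 fold change between the Ade + IMC and Ade groups (x axis) with its standard error for the 43 members tested (rows, grouped by role), by limma (circles) and by limma with mice blocked by the leading digit of their number (squares). No member passed an adjusted p of 0.1, and the points lie between -0.58 and 0.58 on the log2 scale.

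Genes around these enzymes were read in the same 3 comparisons, and their counts in Ade against Con stand beside 32.2% lower and 35.1% higher of all genes tested. Of 10 genes of cystine and cysteine supply, 7 were lower and 2 higher in Ade kidneys (median log2 fold change -0.998). Slc3a1, the subunit of the cystine transporter of the brush border, was at 671 ± 112 CPM in the Con group and 156 ± 66.1 CPM in the Ade group (log2 fold change -2.08, SE 0.24). Slc7a11, the exchanger that takes up cystine for glutathione synthesis, was at 0.434 ± 0.281 CPM in the Con group and 6.71 ± 2.15 CPM in the Ade group (log2 fold change 3.94, SE 0.37), with the Con mice near the floor of 3 counts. Of 12 genes of glutathione breakdown, 8 were lower and 3 higher (median -0.74), from Ggct, the gamma-glutamylcyclotransferase (log2 fold change -1.61, SE 0.26), to Dpep2, a dipeptidase (log2 fold change 3.54, SE 0.28). Dpep2 was at 0.653 to 1.08 CPM in the Con mice. Like Slc7a11, it passed the filter on low counts through the Ade mice, so it could hardly be called lower. All 10 genes of selenium supply and selenoprotein synthesis were lower (median -0.57), most of all Lrp2, the endocytic receptor megalin (log2 fold change -2.65, SE 0.38), which is also one of the proximal tubule markers. Beside them, 5 of the 6 tested members annotated with selenocysteine were lower (Gpx3, Gpx4, Txnrd1, Txnrd2 and Txnrd3) and Gpx1 was not called, and of the 36 without it 22 were lower and 4 higher. As given above, the call of Txnrd1 was close to the threshold and the count of Gpx4 is uncertain.

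The 11 NRF2 regulators had a median log2 fold change of -0.0037 in Ade kidneys, with 3 higher and 2 lower. Maff, a small partner protein of NRF2, was at 3.55 ± 0.917 CPM in the Con group and 16.9 ± 6.89 CPM in the Ade group (log2 fold change 2.28, SE 0.31), and Cul3, part of the ligase that degrades NRF2, at 179.9 ± 17.4 CPM in the Con group and 109 ± 19.5 CPM in the Ade group (log2 fold change -0.70, SE 0.12). Of 10 genes of NADPH supply, 5 were lower and 3 higher, from Nnt, the mitochondrial transhydrogenase (log2 fold change -1.16, SE 0.17), to Pgd of the pentose phosphate pathway (log2 fold change 0.55, SE 0.14). The counts of this and the other lists stand beside 32.2% lower and 35.1% higher of all genes tested. Of 11 thioredoxin, glutaredoxin and methionine sulfoxide reductase genes, 4 were lower and 1 higher, with Msra, which repairs oxidised methionine, lowest (log2 fold change -0.94, SE 0.17) and Msrb3 the one above Con (log2 fold change 0.61, SE 0.12). Of 23 genes of other conjugation, export and detoxification, 10 were lower and 9 higher (median 0.14), with Akr1b8, an aldo-keto reductase, at 2.14 ± 0.738 CPM in the Con group and 27.9 ± 10.1 CPM in the Ade group (log2 fold change 3.73, SE 0.32) and Abcc3, an export pump, at 177 ± 88.8 CPM in the Con group and 58.4 ± 16.99 CPM in the Ade group (log2 fold change -1.58, SE 0.26). Of 8 oxidant producers tested, 6 were higher and 1 lower (median 2.55). Ncf1, a subunit of the phagocyte NADPH oxidase, was at 3.51 ± 0.422 CPM in the Con group and 40.9 ± 10.2 CPM in the Ade group (log2 fold change 3.56, SE 0.19), while Nox4, the oxidase of the renal tubule, was at 621 ± 114 CPM in the Con group and 127 ± 64.04 CPM in the Ade group (log2 fold change -2.27, SE 0.29). The macrophage markers were higher in the same mice, and their part in these values was not tested. In Ade + IMC against Con, where 32.3% of all genes were lower and 30.9% higher, 6 cystine genes were lower and 3 higher, 8 breakdown genes lower and 4 higher, and all 10 selenium genes lower. There were 4 NRF2 regulators lower (Cul3, Sqstm1, Nfe2l2 and Bach1) and 2 higher (Nfe2l3 and Maff), 5 NADPH genes lower and 2 higher, and 4 of the thioredoxin list lower and 1 higher. Of the detoxification genes 10 were lower and 8 higher, and of the oxidant producers 2 were lower (Cyba and Nox4) and 6 higher. In Ade + IMC against Ade, 0 genes of these 8 lists were called (limma), and at an unadjusted p below 0.05 there were 4 of the 12 breakdown genes, 1 of the 10 cystine genes and 0 in the other 6 lists, beside 6.72% of all genes.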

How the data were processed

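Kidney RNA of single mice was sequenced as single-end reads and, by the methods of the study, aligned to mm10 with STAR. The submitters' processing notes list Trimmomatic 0.39, FastQC 0.11.8, Bowtie2 2.2.5, HTSeq 0.9.1 and DESeq2, which leaves the aligner unsettled. Neither the annotation release nor whether counting used strand is given in the sources used here, so overlapping genes are uncertain. For Con and Ade mice the authors deposited raw counts per gene. The second deposited signal, of the Ade and Ade + IMC mice, is the count divided by the median-of-ratios size factor of DESeq2. All values of this table (100%, tolerance 0.001) were whole multiples of 1 read, and the reads recovered differed from the raw Ade counts in 0 values. Each table lists genes with at least 5 reads over its mice. A further deposited table holds the authors' own comparison (fold changes, p-values), and only its gene symbols were used. No library pair of a group agreed within sampling noise (smallest chi-square over its degrees of freedom 4.21).

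Groups came from the labels. Ade and Con were compared on raw counts (14612 genes), and Ade + IMC and Con on raw counts and recovered reads (14578 genes), by the quasi-likelihood test of edgeR 4.0.16 with TMM scaling and filterByExpr. Ade + IMC and Ade were compared on log2(normalized count + 1) by the trended test of limma 3.58.1, for the 14696 genes whose mean was at least 10. A gene was called where its p, adjusted by Benjamini-Hochberg, was below 0.1, as in the study's methods, in R 4.3.3. SE is that of the log2 fold change, for edgeR the absolute log2 fold change divided by the square root of F. Single members were also compared between the adenine-fed groups by two-sided exact permutation tests of log2(normalized count + 1). Exon lengths and coordinates are those of GENCODE M21 (GRCm38), and promoter windows those of RefSeq. Shared sequence is the percentage of the 50-base windows of a gene's longest transcript that occur in transcripts of another gene.

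The members, the gene lists and the tests were chosen with earlier results of these data known. Values in every mouse are given for the called member with the largest rise and fall in Ade against Con and the most abundant member per kb in each role group, and for members at an unadjusted p below 0.05 in Ade + IMC against Ade. Other members named with values were singled out after these were seen. Of each pathway list the called genes with the largest rise and fall are named. Alternatives changed the tool (DESeq2 1.42.0), the scaling, the filter, the threshold, the pseudocount, the block and the mice included.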

Additional observations from a re-analysis of the deposited data

Results flagged for a closer look

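Values in each group were checked for a mouse far from the others, which chance gives in about 3 of the 60 groups of values tested, and 3 were found. Gsto1 in the Con group was 110.4 CPM in mouse 403, against 76.7 to 82.9 CPM in the other mice. Prdx4 in the Ade group was 32.1 CPM in mouse 308, against 21.1 to 24.9 CPM. Prdx4 in the Ade + IMC group was 43.5 CPM in mouse 311, against 20.6 to 24.6 CPM.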

How the results depend on the processing

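The number of members called in Ade against Con was 31 and ranged from 29 to 35 over the alternatives, with 35 by DESeq2 (6 higher, 29 lower), 30 with upper-quartile scaling (5 higher, 25 lower) and 33 without the filter (6 higher, 27 lower). In Ade + IMC against Con it was 30 and ranged from 27 to 31. In Ade + IMC against Ade it was 0 under every alternative that adjusts p, and 3 at an unadjusted p below 0.05. Of 714 values of single members in Ade against Con, 680 kept their direction and side of the threshold, 13 lost the call, 10 gained it and 11 changed sign. These last belong to members near 0. The log2 fold change of Srxn1 was 0.02, and -0.0142 by DESeq2, -0.00749 with relative log expression scaling and -0.00531 without the filter, and without single mice it ranged from -0.048 to 0.090. Without single mice the range was -0.023 to 0.14 for Gstm1, -0.11 to 0.0014 for Gstm4 and -0.00015 to 0.20 for Gsto1. In Ade + IMC against Con, 491 of 510 values of the 30 called members kept direction and call and 19 lost the call, and the other 12 members tested gained a call in 11. The cause was not tested. A replicate block on the leading digit of the mouse numbers gave 32, 30 and 0 called members in Ade against Con, Ade + IMC against Con and Ade + IMC against Ade. Deviations of mice that share this digit but not the group had a median correlation of 0.06 (31 pairs of mice), against -0.02 for other digits (65 pairs), so the digit is not shown to pair the mice. The depth limits members with few reads, such as Gstp3 and Gsta1, which were not tested against Con.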

Other observations

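Markers of further cell types were read beside the members. In Ade against Con, where 32.2% of all genes were lower and 35.1% higher, 4 of 5 markers of the thick ascending limb and distal tubule and 5 of 5 of the collecting duct were lower, 2 of 4 of the endothelium were lower, 0 of 3 of the podocyte were called, and all tested markers of T cells (3), B and plasma cells (3) and neutrophils (2) were higher. Among the last, S100a8, S100a9, Ms4a1 and Cd79a had Con means of 0.181, 0.241, 0.281 and 0.493 CPM, near the floor of 3 counts. They passed the filter on low counts through the Ade mice, so they could hardly be called lower. The 3 red cell markers had a summed level of 154 to 206 CPM in the Con mice, 14.0 to 82.9 CPM in the Ade mice and 69.8 to 189 CPM in the Ade + IMC mice. In Ade + IMC against Ade, 0 markers of these lists were called by limma, and all 3 red cell markers were above 0 (median log2 fold change 1.56). So were all markers of the collecting duct (5, median 0.52), thick ascending limb and distal tubule (5, 0.37), endothelium (4, 0.31) and podocyte (3, 0.52). Markers of T cells, B and plasma cells and neutrophils lay on both sides of 0.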
